A study of Mus musculus with 6 samples.

Results

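The genes described here are 37 markers of macrophages and other leukocytes, followed in left ventricle of adult male C57BL/6 mice with and without MURC. They were taken by name from a list of marker symbols, and each had to be the single gene symbol of a probe set on the array. Of the 37, 35 had a probe set of their own, out of 19938 named genes and 35556 probe sets on the array. The symbol Mertk1 matched no probe set, and Ly6c2 was carried only by probe sets shared with another gene, so neither has a value here.

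The study compared 3 MURC knockout arrays with 3 wild-type arrays of total RNA, to ask which transcripts differ in the heart without MURC. MURC is a muscle protein of caveolae, the membrane pits of muscle cells, and its gene is now named Cavin4. The knockout samples were labelled 11, 11 and 13 weeks old and the wild-type samples 13, 13 and 12 weeks old. The labels describe no Cre driver or drug treatment and do not say whether the arrays come from separate animals, so each p-value rests on the spread between samples that may be technical.

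Macrophages are the most numerous immune cells of the healthy heart. They take up dying cells and debris, and most of them are long-lived resident cells that renew in place under the growth factor receptor encoded by Csf1r. A smaller set is replaced from blood monocytes, which enter tissue through the chemokine receptor encoded by Ccr2. Lymphocytes and granulocytes are sparse in uninjured heart muscle. The markers were therefore taken in 6 classes, namely core macrophage, resident macrophage, monocyte and myeloid, pan-leukocyte, lymphocyte and granulocyte. In whole tissue, fewer cells of a type and less RNA per cell cannot be told apart.

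On the scale of log2 signals, the medians of the 6 arrays lay between 4.60 and 4.71. Cavin4 lay at 5.38 to 5.74 on the knockout arrays and at 8.07 to 8.75 on the wild-type arrays, which matched their labels. Markers of heart muscle differed by -0.11 to 0.06 between the genotypes over 8 genes, the actin gene Actc1 by -0.11 without overlap and the myosin light chain genes Myl2 and Myl3 by 0.06 and 0.05. Their summed linear signal was 47900 to 48700 for the knockout arrays and 48300 to 48800 for the wild type. The 30th percentile of probe set means, 3.45, served as the filter on dim probe sets. Levels of different probe sets are not ranked against each other, because probes differ in how brightly they bind.

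**Figure D1:**
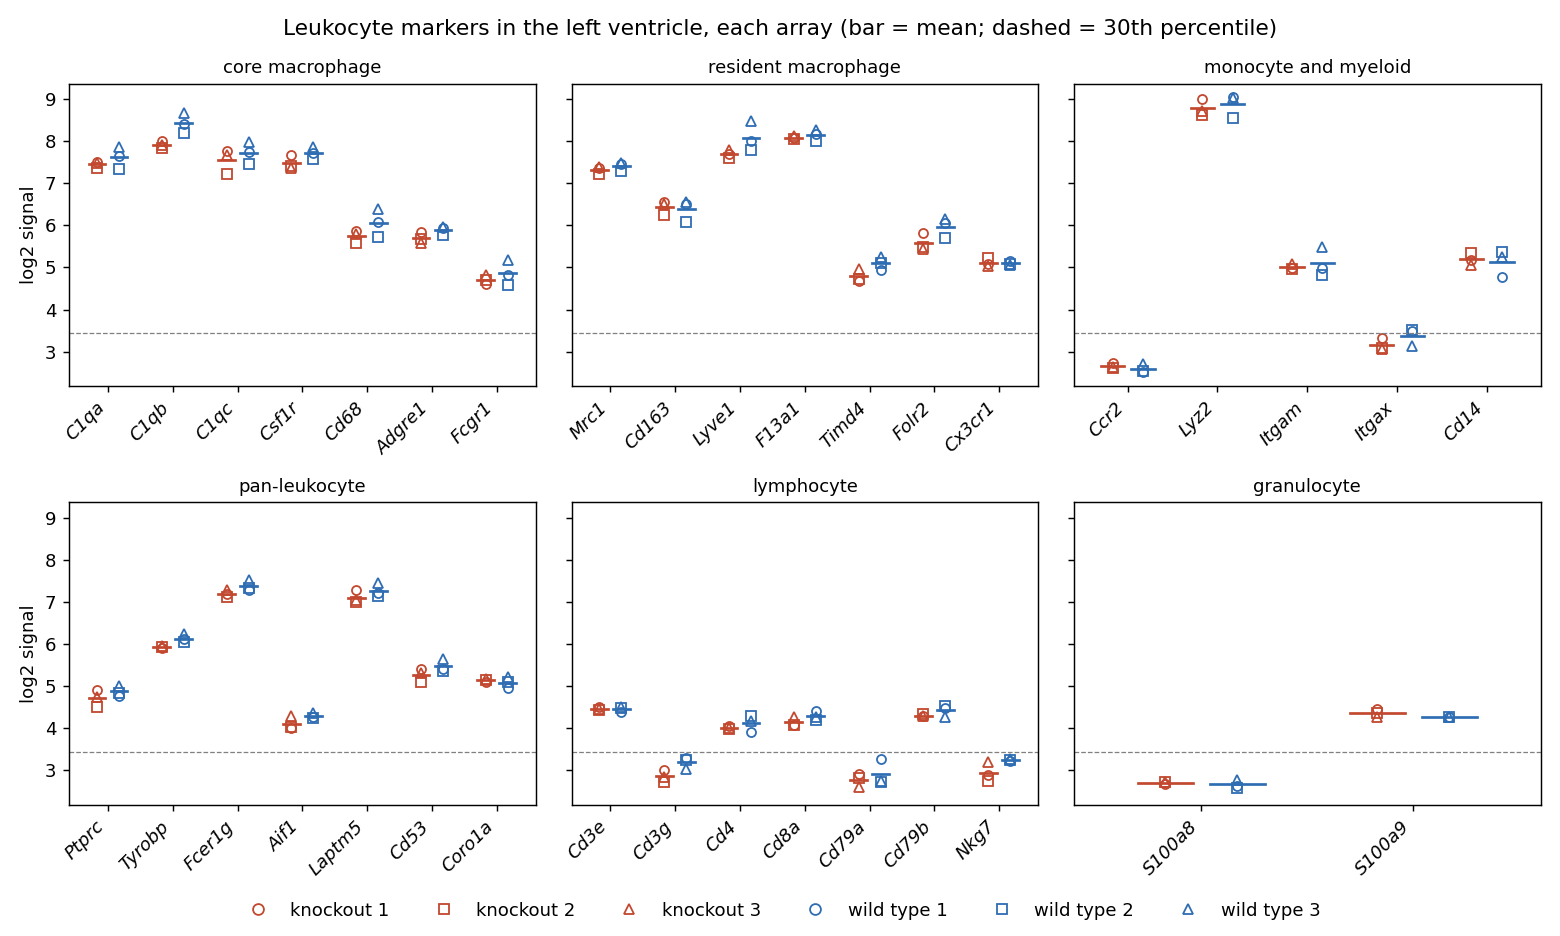
Log2 signal of the 35 measured markers, in 1 panel per class, with the knockout arrays in red and the wild-type arrays in blue (n = 3 each). The bars are means and the dashed line is the 30th percentile, 3.45. All core macrophage, resident macrophage and pan-leukocyte markers lie above the line on every array, while Ccr2, S100a8, Cd79a, Cd3g and Nkg7 lie below it on every array and Itgax lies on either side of it.

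Most macrophage and pan-leukocyte markers measured lower in the knockout, by small amounts, and none of the 29 members tested passed the adjusted threshold. Of the 29, 23 measured lower and 6 higher, with a median log2 difference of -0.16. Over all 24898 probe sets tested, 59.1% measured lower and the median was -0.04, and with 1 probe set for each of 15298 named genes the share was 62.8%. At an unadjusted p under 0.05 in limma there were 5 members, all lower, which is 17.2% of those tested against 9.02% of all probe sets and 8.97% of named genes. The genotypes did not overlap, with the knockout lower, for 2 members or 6.9%, against 12.9% of all probe sets and 14.1% of named genes. At the adjusted threshold 0 members passed, against 0.00402% of all probe sets, which is Cavin4 alone. The adjusted p of the members ran from 0.14 for C1qb to 0.992 for Cd3e.

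The 5 members with an unadjusted p under 0.05 were C1qb, Lyve1, Folr2, Timd4 and Tyrobp. All of them are macrophage, resident macrophage or pan-leukocyte markers. No lymphocyte, monocyte or granulocyte marker was among them, but only 4, 3 and 1 of these were tested. That is too few to set the classes apart, with 9.02% of all probe sets lower at this threshold. Without the filter on dim probe sets, 1 of 7 lymphocyte markers was lower at an unadjusted p under 0.05. After quantile normalization, which gives all arrays the same distribution, the count over the 29 members was 1. After median centring it was 2, while 23 of 29 measured lower in both. With age as a covariate 26 of 29 measured lower, 4 of them at an unadjusted p under 0.05.

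**Figure D2:**
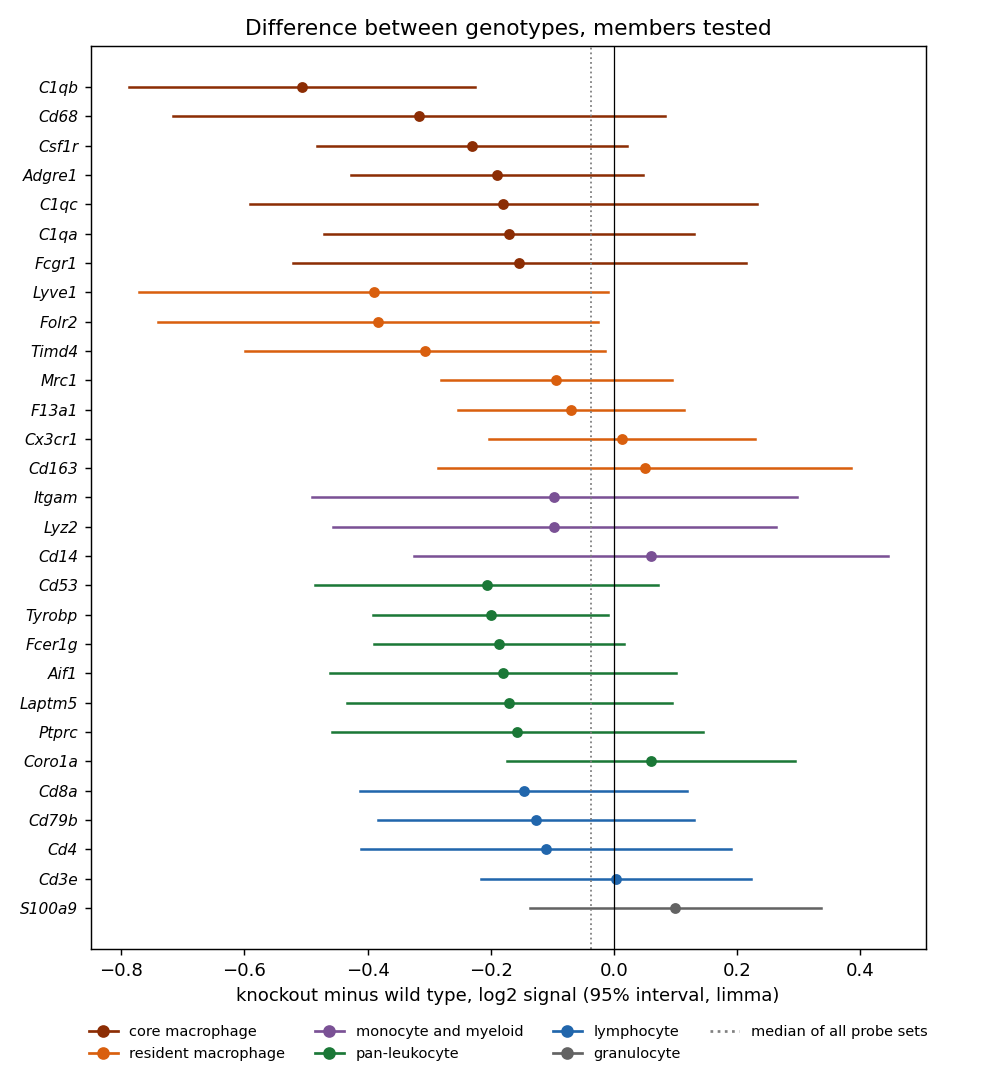
Knockout minus wild type in log2 signal for the 29 markers tested, coloured by class, with 95% intervals from limma (n = 3 arrays per genotype). The dotted line is the median of all probe sets tested, -0.04. The intervals of C1qb, Lyve1, Folr2, Timd4 and Tyrobp lie below 0 without adjustment, and those of all other markers include 0.

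Wild-type replicate 3 was the array that stood highest for these markers. Over the 21 core macrophage, resident macrophage and pan-leukocyte markers, a grouping made after the values were seen, it was the highest of the 6 arrays for 19 or 90.5%, and it tied with knockout replicate 1 for Cd163. Over all 29 members it was the highest for 20 or 69.0%, and over all probe sets tested for 13.7%. Knockout replicate 2 was the lowest array for 9 of the 21, or 42.9%, which is 31.0% of the 29, against 14.1% of all probe sets. Relative to each gene's own mean, the median of the 21 markers was 0.25 on wild-type replicate 3, 0.09 on wild-type replicate 1 and -0.03 on wild-type replicate 2. In the knockout it was -0.02, -0.17 and -0.06 on replicates 1, 2 and 3. Wild-type replicate 2 therefore lay among the knockout arrays on this measure, and the genotypes overlapped.

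The spread within the wild type was larger than the difference between genotypes for 17 of these 21 markers, or 81.0%, against 78.2% of all probe sets. The median range over the wild-type arrays was 0.28 and the median size of the difference was 0.18. Without wild-type replicate 3 the median difference of the 21 went from -0.18 to -0.11, and that of all 29 members from -0.16 to -0.08. Of the 21, 18 measured lower there too, but Fcgr1 turned to 0.005 and Cx3cr1 to -0.007. The 1 member with an unadjusted p under 0.05 was C1qb. Without knockout replicate 2 the median of the 29 was -0.12 and the 1 member at an unadjusted p under 0.05 was again C1qb.

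**Figure D3:**
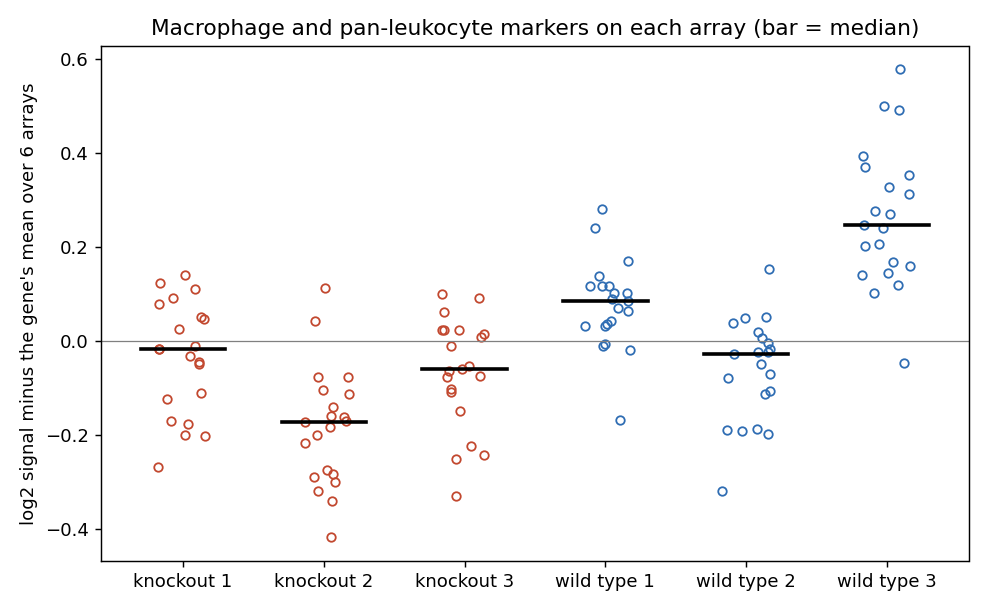
Log2 signal of 21 core macrophage, resident macrophage and pan-leukocyte markers on each array, minus the gene's mean over the 6 arrays. Each circle is a gene and the black bar is the median of the 21. Wild-type replicate 3 has the highest median, 0.25, knockout replicate 2 the lowest, -0.17, and wild-type replicate 2, at -0.03, lies between knockout replicates 1 and 3.

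All 7 measured core macrophage markers were lower in the knockout, by 0.15 to 0.51 on the log2 scale, with a class median of -0.19. C1qb encodes the B chain of C1q, the recognition molecule that starts the classical complement pathway and that macrophages make in tissue. It measured 8.0, 7.83 and 7.92 in knockout replicates 1 to 3 and 8.41, 8.19 and 8.67 in wild-type replicates 1 to 3. All knockout arrays lay below all wild-type arrays. The means were 7.92 ± 0.09 and 8.42 ± 0.24 (SD, n = 3), a log2 difference of -0.51 (SE 0.12, 95% interval -0.79 to -0.23) or 1.42-fold higher in the wild type. Its limma adjusted p was 0.14, within 0.037 to 0.354 over the alternatives. It was 0.037 when only annotated probe sets were tested and 0.0489 when a gene's probe sets were averaged. C1qb has 1 probe set, and its log2 difference was the same -0.51 in both. They tested 17934 probe sets and 13956 genes, against 24898 probe sets in the main fit.

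C1qa and C1qc encode the A and C chains of the same molecule, and they differed less. C1qa measured 7.50, 7.36 and 7.48 in the knockout against 7.65, 7.34 and 7.86 in the wild type. C1qc measured 7.76, 7.22 and 7.66 in the knockout against 7.74, 7.45 and 7.99 in the wild type. Both overlapped between genotypes, with log2 differences of -0.17 (SE 0.13) and -0.18 (SE 0.18) and limma adjusted p of 0.632 and 0.721.

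The gap between C1qb and its partner chains was compared within each array. It reuses the C1qb values given above, so it adds no separate support. The size of such a gap depends on the probes, and what is compared is how it differs between arrays. The signal of C1qb minus that of C1qa was 0.50, 0.47 and 0.44 in the knockout against 0.76, 0.85 and 0.81 in the wild type. C1qb minus C1qc was 0.24, 0.61 and 0.26 in the knockout against 0.67, 0.74 and 0.68 in the wild type. Against the mean of both partners the gap was 0.42 ± 0.10 in the knockout against 0.75 ± 0.04 in the wild type (SD, n = 3), a difference of -0.33. The exact permutation test gave a two-sided p of 0.1, the smallest that 3 against 3 arrays allow. C1qb was the member with the smallest p, and the comparison was chosen after the values were seen. C1qa minus C1qc differed by only 0.01 between the genotypes. The unequal change shows in these probe sets, and the sources used here do not say which part of each transcript they cover.

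**Figure D4:**
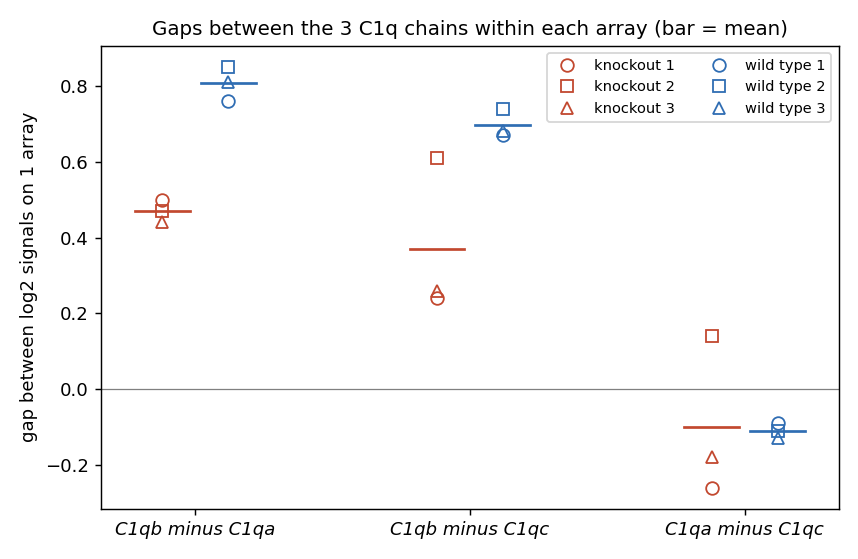
Gap between the log2 signals of 2 C1q chains on the same array, for the knockout (red) and wild-type (blue) arrays, with bars for the mean of 3 arrays. The gap of C1qb over C1qa is 0.44 to 0.50 in the knockout and reaches 0.76 to 0.85 in the wild type, while C1qa minus C1qc overlaps.

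The 3 C1q genes lie side by side on chromosome 4 of GRCm38.p6, C1qb at chr4:136880126-136886200, C1qc at chr4:136889801-136892936 and C1qa at chr4:136895916-136898844. Sequences before a transcript start of C1qb and of C1qc are shown because the probe sets of these neighbouring genes measured unequal differences. The genes themselves are not shown to have changed unequally. They are the 250 bases before a RefSeq transcript start on the minus strand, at chr4:136886201-136886450 and chr4:136892915-136893164. The C1qc window overlaps the gene's interval, which ends at 136892936, so the transcript start used lies inside the gene. Capitals mark GAGGAA or its reverse complement TTCCTC, letters bound by PU.1, the myeloid factor encoded by Spi1.
C1qb: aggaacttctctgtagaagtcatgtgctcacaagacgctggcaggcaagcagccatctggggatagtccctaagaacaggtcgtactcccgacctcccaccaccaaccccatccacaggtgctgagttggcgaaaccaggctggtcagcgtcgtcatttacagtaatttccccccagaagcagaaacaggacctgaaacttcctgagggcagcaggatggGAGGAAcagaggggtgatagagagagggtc
C1qc: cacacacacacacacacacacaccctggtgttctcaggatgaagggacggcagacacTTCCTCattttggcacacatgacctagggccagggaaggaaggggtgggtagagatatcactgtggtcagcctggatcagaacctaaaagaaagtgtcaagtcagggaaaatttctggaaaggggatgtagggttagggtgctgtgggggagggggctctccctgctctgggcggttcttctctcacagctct

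C1qb holds 1 match on the gene's own strand, starting 30 bases before the transcript start used. C1qc holds 1 on the other strand, starting 193 bases before its transcript start. Of the 28 members with a promoter entry in the RefSeq table, 16 or 57.1% held the letters on either strand in at least 1 such window, against 25.9% of all 27025 genes in the table. Members with no match included Folr2 and Timd4, 2 of the 5 with the smallest p, as well as Cx3cr1 and Cd163, which hardly differed. Lyve1, Tyrobp and C1qa had no entry. A match describes the letters in these windows and is not a measured site.

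The other core markers were lower without passing the test. Csf1r, the receptor for the growth factors that keep macrophages alive, measured 7.68, 7.42 and 7.36 in the knockout against 7.72, 7.58 and 7.85 in the wild type. The difference was -0.23 (SE 0.11, limma adjusted p = 0.408), and knockout replicate 1 lay inside the wild-type range. Cd68, a lysosomal glycoprotein of phagocytes, differed by -0.32 (SE 0.17), and this rested on wild-type replicate 3, without which it was -0.15. Adgre1, which encodes the F4/80 antigen, differed by -0.19 and Fcgr1, the high-affinity IgG receptor gene, by -0.15. Fcgr1 measured 0.005 higher in the knockout without wild-type replicate 3.

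Of the resident macrophage markers 3 had larger differences and 4 small ones, a grouping made from these same values. The class median was -0.09. Lyve1, a hyaluronan receptor of vessel-associated macrophages, measured 7.69, 7.61 and 7.79 in the knockout against 8.01, 7.78 and 8.47 in the wild type. The genotypes touched, since wild-type replicate 2 lay just below knockout replicate 3. The log2 difference was -0.39 (SE 0.16, limma adjusted p = 0.356) and -0.20 without wild-type replicate 3. Lyve1 is also made by lymphatic endothelium, of whose other markers 4 of 5 were measured. Prox1, a transcription factor of lymphatic vessels that heart muscle cells make as well, differed by -0.35, while Flt4 and Mmrn1 differed by 0.05 and 0.04. Over the 4 genes the median was 0.01, with 2 lower and 2 higher. The list's summed linear signal, in which Prox1 weighs most, was 343 to 424 for the knockout and 423 to 491 for the wild type. All 4 genes lay above the filter, and their part in the Lyve1 difference was not tested.

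Folr2, a folate receptor of resident macrophages, measured 5.83, 5.48 and 5.45 in the knockout against 6.06, 5.70 and 6.15 in the wild type. Knockout replicate 1 alone overlapped the wild type. The difference was -0.38 (SE 0.15, limma adjusted p = 0.333), and it stayed between -0.52 and -0.29 with each array left out. Timd4, a phosphatidylserine receptor for dying cells that marks long-lived resident macrophages, measured 4.68, 4.73 and 4.97 in the knockout against 4.94, 5.10 and 5.26 in the wild type. Knockout replicate 3 lay just above wild-type replicate 1. The difference was -0.31 (SE 0.13, limma adjusted p = 0.346), between -0.40 and -0.23 with each array left out.

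The remaining resident markers were nearly level. F13a1, which encodes the A chain of coagulation factor XIII, measured 8.07, 8.04 and 8.13 in the knockout against 8.18, 8.01 and 8.26 in the wild type, a difference of -0.07 with a 95% interval of -0.25 to 0.11. Mrc1, the mannose receptor gene, differed by -0.09 (95% interval -0.28 to 0.09). Cd163, the receptor for haemoglobin bound to haptoglobin, and Cx3cr1, the fractalkine receptor gene, differed by 0.05 and 0.01, and the sign of each changed with single arrays left out. The intervals of these 4 genes reach from -0.28 to 0.38. That of Lyve1, from -0.77 to -0.01, overlaps each of them, so these genes are not shown to differ from Lyve1.

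Setting each of the 21 macrophage and pan-leukocyte markers against the median deviation of the other 20 on the same array gave a scale on which a shift shared by all of them cancels. This description was added after the values were seen and carries no test. Because most of the markers measured lower in the knockout, a gene that was lower by less comes out higher on this scale. On it C1qb differed by -0.33 with no overlap. Mrc1, whose own difference was -0.09 with overlap, came out at 0.10 with no overlap. Lyve1 differed by -0.21 and Folr2 by -0.20 with overlap. C1qa, C1qc, Fcer1g, Aif1 and Adgre1 all differed by 0.014 or less in size. Coro1a, Cd163 and Cx3cr1 differed by 0.25, 0.24 and 0.20, with overlap. Tyrobp differed by -0.02 on this scale.

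Among the pan-leukocyte markers 6 of 7 measured lower, with a class median of -0.18. Tyrobp, the signalling adaptor DAP12 of myeloid receptors, measured 5.91, 5.93 and 5.96 in the knockout against 6.12, 6.04 and 6.24 in the wild type. Among the members tested it was, beside C1qb, the other whose genotypes did not overlap. The difference was -0.20 (SE 0.08, limma adjusted p = 0.346), between -0.25 and -0.15 with each array left out. Fcer1g, the Fc receptor gamma chain that like DAP12 passes receptor signals on, measured 7.18, 7.13 and 7.28 against 7.28, 7.34 and 7.53. Its highest knockout array equalled its lowest wild-type array, and the difference was -0.19 (SE 0.09, limma adjusted p = 0.402).

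The remaining pan-leukocyte genes overlapped. Cd53, a tetraspanin of leukocytes, differed by -0.21, and Aif1, the actin-binding protein IBA1 of macrophages, by -0.18. Laptm5, a lysosomal membrane protein of blood cells, differed by -0.17, and Ptprc, the common leukocyte antigen CD45, by -0.16. Coro1a, an actin regulator abundant in lymphocytes, was the exception at 0.06, and it was -0.01 without wild-type replicate 1. Wild-type replicate 3 was the highest array for all 7 of these genes, Coro1a included.

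Monocyte and myeloid markers gave no common direction. Lyz2, the lysozyme gene of macrophages, monocytes and granulocytes, measured 9.0, 8.62 and 8.71 in the knockout against 9.04, 8.55 and 9.03 in the wild type. Each genotype thus spanned nearly the same range, and the difference was -0.10 (SE 0.15, 95% interval -0.46 to 0.26). Itgam, the integrin CD11b, also differed by -0.10, which became 0.10 without wild-type replicate 3, and Cd14, a receptor for bacterial lipopolysaccharide, differed by 0.06. Ccr2 was below the filter, at 2.74, 2.62 and 2.63 in the knockout against 2.51, 2.53 and 2.71 in the wild type, so the inflammatory monocyte marker was not tested. Itgax, the integrin CD11c of dendritic cells, was below it as well, with means of 3.15 and 3.38.

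Of the 7 lymphocyte markers 4 were tested and 3 lay below the filter. Cd3e, a chain of the T cell receptor complex, measured 4.50, 4.43 and 4.47 in the knockout against 4.40, 4.49 and 4.50 in the wild type, a difference of 0.003 with a 95% interval of -0.22 to 0.22. The T cell coreceptor genes Cd4 and Cd8a differed by -0.11 and -0.15, and Cd79b, a chain of the B cell receptor complex, by -0.13, all with overlap. Cd3g was dim, at 3.02, 2.73 and 2.84 in the knockout against 3.30, 3.25 and 3.04 in the wild type. Nkg7, a granule protein of natural killer and cytotoxic T cells, was also dim, at 2.89, 2.75 and 3.19 in the knockout against 3.22, 3.24 and 3.27 in the wild type. Both were lower in the knockout without overlap, by narrow margins of 3.02 against 3.04 for Cd3g and 3.19 against 3.22 for Nkg7. They lay below the level at which probe sets were tested, and no share over such dim probe sets was counted. Cd79a, the other B cell chain, overlapped, with means of 2.78 and 2.92.

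Of the 2 granulocyte markers only 1 was tested, so no direction can be given for the class. S100a9, a subunit of the calprotectin complex of neutrophils, measured 4.46, 4.36 and 4.27 in the knockout against 4.26, 4.27 and 4.26 in the wild type, 0.10 higher in the knockout (SE 0.10, limma adjusted p = 0.732). Its partner S100a8 was below the filter, with means of 2.71 and 2.67. Among other neutrophil genes 6 of 11 lay below the filter, and 3 of the 5 tested measured lower. Csf3r, the receptor for granulocyte colony-stimulating factor, differed by -0.31 without overlap (limma adjusted p = 0.326). Of all probe sets 12.9% were lower without overlap. The neutrophil enzyme genes Mpo and Mmp9 differed by -0.11 and 0.04.

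The other genes of macrophage biology were followed in 15 lists with 184 genes, of which 143 entries were tested and 0 passed the adjusted threshold. Among growth factors, chemokines and their receptors, 16 of 18 measured lower with a median of -0.08, and 2 had an unadjusted p under 0.05 with the genotypes not overlapping. Each count is 11.1% of the list, against 9.02% and 12.9% of all probe sets. Ccl2, the ligand of CCR2 that draws in monocytes, differed by -0.27 and Ccl4, another chemokine, by -0.29 (limma adjusted p = 0.339 and 0.316). The ligands of the growth factor receptor were nearly level, with Csf1 at -0.09 and Il34 at 0.06, and so was Cx3cl1, the ligand of CX3CR1, at -0.05. Cxcl12, a chemokine of stromal cells, measured 0.19 higher.

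Complement genes and receptors of phagocytosis had a median of -0.06, with 14 of 20 lower. C5ar1, the receptor for the complement fragment C5a, differed by -0.39, and Cfp, which encodes properdin of the alternative pathway, by -0.29. Mertk, the receptor by which macrophages take up dying cells, went the other way at 0.20 without overlap (SE 0.08, limma adjusted p = 0.318), as did 6.12% of all probe sets. It measured 6.21 in the wild type and 6.41 in the knockout on average. Among the transcription factors of macrophages 6 of 10 were lower with a median of -0.03, and after quantile normalization the median was 0.006. Spi1 differed by -0.08, Ikzf1, the lymphoid and myeloid factor Ikaros, by -0.35, Irf8, a factor of monocytes and dendritic cells, by -0.26, and Cebpb by 0.25.

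Genes that present antigen on MHC class II were lower in 8 of 8 tested, with a median of -0.265, and 4 of the 8 had an unadjusted p under 0.05, against 9.02% of all probe sets. H2-Aa, H2-DMa and H2-Eb1 differed by -0.44, -0.37 and -0.30, with limma adjusted p of 0.12, 0.269 and 0.308. The count at an unadjusted p under 0.05 was 1 of 8 without wild-type replicate 3 and 1 without knockout replicate 2. It was 2 after quantile normalization. The median of the 8 was -0.23 without wild-type replicate 3, where that of the 29 members was -0.08, and the 2 sets were not tested against each other. A further list of 22 macrophage markers had 18 lower and a median of -0.09, which was -0.01 without wild-type replicate 3. In it Ctsc, a lysosomal protease that activates granule enzymes, differed by -0.43, Lcp1, the actin bundling protein L-plastin, by -0.30, and Lcp2, an adaptor of immune receptors, by -0.18. None of the 3 overlapped between genotypes, which is 13.6% of the list against 12.9% of all probe sets.

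The lists for other blood and tissue cells had medians from -0.095 to 0.09. Other lymphocyte markers had a median of -0.04 over 10 genes, dendritic cell markers -0.01 over 6, neutrophil markers -0.01 over 5 and mast cell markers -0.095 over 4. Prf1, the perforin gene of cytotoxic lymphocytes, differed by -0.28 and Siglech, a receptor of plasmacytoid dendritic cells, by -0.38, at means of 3.74 and 4.12 not far above the filter. The B cell genes Cd37 and Cd22 differed by -0.22 and -0.21, the chemokine receptor gene Ccr7 of migrating dendritic cells by 0.21 and Flt3, a growth factor receptor of their precursors, by -0.06. The mast cell genes Kit, Cpa3 and Tpsb2 differed by -0.12, 0.25 and -0.15. Ppbp, a chemokine of platelets, measured 0.62 higher with a SE of 0.34. Slc4a1, the anion exchanger of red cells, differed by -0.19 and Gp9, a platelet glycoprotein, by 0.08. The summed signal of the red cell and platelet list was 120 to 212 for the knockout and 137 to 179 for the wild type.

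Endothelial markers had a median of 0.06 and mural cell markers one of 0.09. Fabp4, the fatty acid carrier of capillaries, differed by 0.14, and the endothelial surface genes Pecam1 and Tie1 by 0.08 and 0.09. The smooth muscle genes Myh11 and Tagln measured 0.35 and 0.42 higher without overlap (limma adjusted p = 0.113 and 0.276), as did 6.12% of all probe sets. The pericyte channel gene Kcnj8 differed by -0.27. Fibroblast markers had a median of -0.015, with 5 of 8 lower. Among them Gsn and Dpt measured 0.21 and 0.17 higher, also without overlap, and Col1a1 differed by -0.20. The summed linear signal of the core macrophage markers was 838 to 999 for the knockout and 952 to 1310 for the wild type. That of the endothelial markers was 4020 to 4170 and 3690 to 4430, and that of the fibroblast markers 5550 to 6120 and 5340 to 5710. The brightest genes of a list weigh most in such sums. Whether the share of these cells in the tissue pieces had a part in the macrophage marker differences was not tested.

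**Figure D5:**
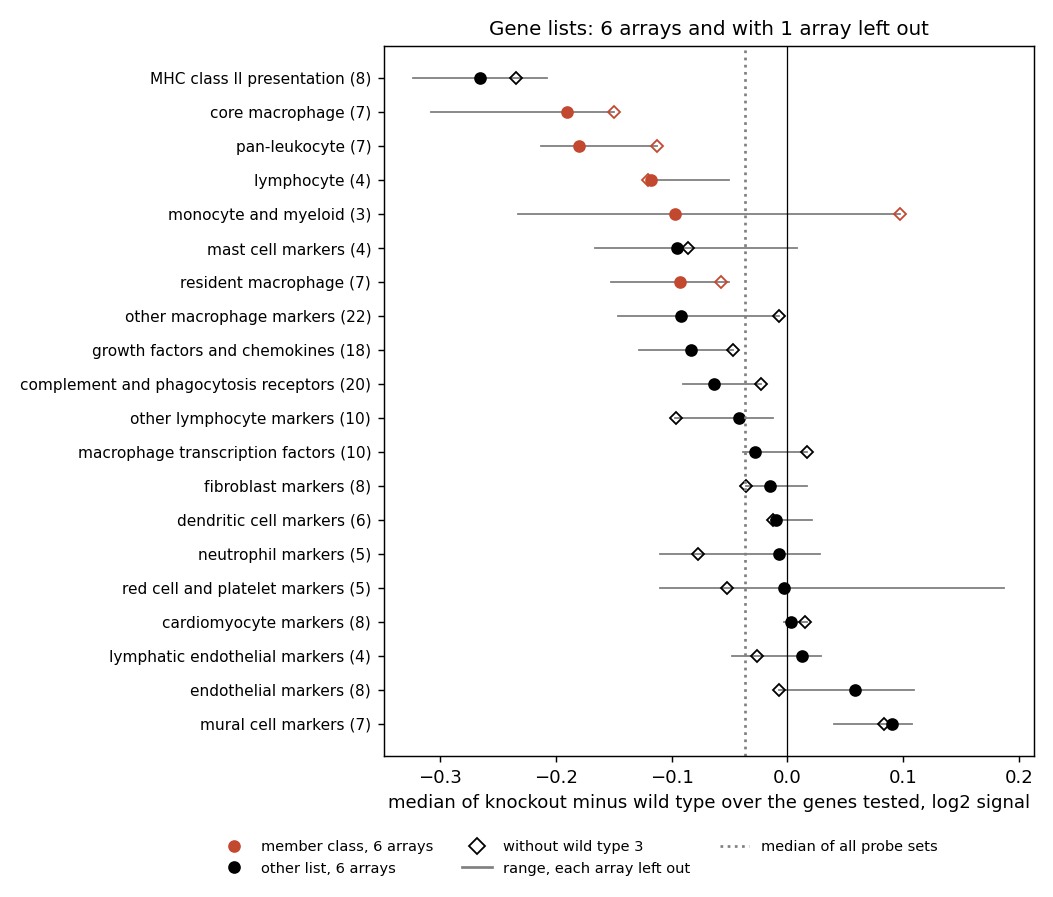
Median of knockout minus wild type in log2 signal over the genes tested in each list, with the number of genes in brackets and the marker classes in red. Filled circles use 6 arrays, open diamonds leave out wild-type replicate 3, grey bars span each array left out and the dotted line is the median of all probe sets, -0.04. Without wild-type replicate 3 the core macrophage and pan-leukocyte medians become -0.15 and -0.11, and the monocyte and myeloid median turns from -0.10 to 0.10.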

How the data were processed

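Left ventricle RNA of 3 MURC knockout and 3 wild-type samples was labelled with biotin and hybridized to Affymetrix arrays, 1 array per sample, per the labels' protocols. The authors deposited 1 table of log2 signals from 0.46 to 13.72, a scale read from the values. The submitters' processing notes name MAS5, and the sources used here give no background correction, scaling or build. Values were used as deposited. Platform annotation gave 1 symbol to 21789 probe sets, of which 21698 matched GRCm38.p6 gene identifiers.

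The test was limma 3.58.1 in R 4.3.3, knockout minus wild type (lmFit, eBayes with intensity trend, two-sided), over probe sets at or above the 30th percentile of the mean, with Benjamini-Hochberg adjustment at 0.05. The fit was tested on simulated data. Each measured member had 1 probe set of its own. Values per array are given for members with an unadjusted p under 0.05 or no overlap and the member with the highest mean of each class, and from each other list the 3 genes with the smallest p are named, plus ligands of members, Spi1 and Mertk. Per-array values of C1qa, C1qc, Csf1r and Ccr2 were added after they were seen. The members and lists were chosen with earlier results of these data known. The number of arrays limits the precision.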

Additional observations from a re-analysis of the deposited data

How the results depend on the processing

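Over 16 alternatives the median log2 difference of the members stayed between -0.233 and -0.083, and the number of members lower was 22 to 26 with each array left out. Members with an unadjusted p under 0.05 were 5, against 1 after quantile normalization, 2 after median centring and 1 to 7 with each array left out. Probe sets past the adjusted threshold were 1, against 130 after quantile normalization, 105 after median centring, 48 with the 50th percentile filter, 361 among annotated probe sets, 34 with age as a covariate, 126 with array weights, 134 when probe sets of a gene were averaged and 0 to 11 with each array left out. The cause was not tested, beyond the smaller number of probe sets tested in some. C1qb alone of the members passed in any alternative, in 2 of them, with its log2 difference unchanged at -0.507.

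Of the 29 members tested, 22 kept their direction in every alternative. With age as a covariate Cx3cr1 measured -0.025, Cd14 -0.058 and Cd3e -0.006, and Cd3e measured -0.006 with array weights. With each array left out, Fcgr1 ranged from -0.29 to 0.005, Cd163 from -0.097 to 0.142, Cx3cr1 from -0.04 to 0.055, Itgam from -0.233 to 0.097, Cd14 from -0.117 to 0.173, Coro1a from -0.008 to 0.127 and Cd3e from -0.028 to 0.022. Same-numbered arrays of the 2 genotypes did not deviate together (correlations of -0.0301, 0.00946 and -0.0193). These values show no pairing by number, but they cannot exclude one. A fit with the replicate block gave 0 probe sets past the threshold and 6 members at an unadjusted p under 0.05. Signals below the filter, as of Ccr2 and S100a8, limit what can be said of monocytes and granulocytes.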
